A study of Mus musculus with 12 samples.

Results

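Ssbp2, Tmem150c, Klhdc7a and Tmprss13 are 4 of the 26921 genes counted in left ventricular RNA of mice with and without a cardiomyocyte deletion of Gch1, the gene of the enzyme that starts tetrahydrobiopterin synthesis. They were chosen by their separation between the genotypes in these same libraries and because little is known of them in the heart. Their genotype differences are therefore given as a description, with no test. Each symbol matched 1 row of the counts through GENCODE M21.

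WT hearts (n = 6) came from Gch1 flox/flox mice, and cmGch1 KO hearts (n = 6) came from Gch1 flox/flox mice that also carried a heterozygous α-MHC-driven Cre recombinase. All mice were 16 weeks old, controls were littermates, and each library was made from the total RNA of left ventricle. The α-MHC promoter drives Cre in cardiomyocytes, so the other cells of the ventricle keep their Gch1. No library from mice with Cre alone was analysed here, so the effects of Cre and of Gch1 loss cannot be told apart. The labels number the libraries without naming animals. The adjusted p-values of genotype differences below set each difference against the spread between these libraries.

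Totals ranged from 19921398 to 37917806 counts per library. Levels are given in cpm, the counts of a gene scaled by library size and edgeR's TMM factors. The deleted gene Gch1 was in WT at 10.7 ± 0.974 cpm and in cmGch1 KO hearts at 5.48 ± 0.855 cpm (SD, n = 6 each), without overlap. cmGch1 KO replicates 2 and 3 stood apart from the other 10 libraries. They held Xist at 86.7 and 99.1 cpm and 0 counts of 4 Y-linked genes, and 14.9% to 16.1% of their counts were mitochondrial, against 18.3% to 22.9% in the others. The other 10 libraries held Xist at 0.234 cpm or less and the Y-linked genes at 167 to 192 cpm in sum. The labels give no sex, but no WT library had the pattern of replicates 2 and 3, so sex-linked expression was not balanced between the genotypes. The difference of each of the 4 genes is therefore also given without cmGch1 KO replicates 2 and 3.

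Ssbp2 encodes a single-stranded DNA-binding protein that joins LDB1, the adaptor that links LIM-homeodomain, LMO and GATA factors on chromatin, and SSBP proteins protect LDB1 from degradation. Tmem150c, also called tentonin 3, is a membrane protein of the TMEM150 and DRAM family that has been linked to mechanically activated currents. Klhdc7a belongs to the kelch domain proteins, whose repeats fold into a propeller that binds other proteins, and its own function is little known. Tmprss13 is a type II transmembrane serine protease, a protease anchored at the cell surface by its amino-terminal end and known mainly from epithelia.

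The genes differ in structure. In GENCODE M21 on GRCm38, Ssbp2 (ENSMUSG00000003992) lies at chr13:91460283-91703429 on the plus strand, with 20 merged exon blocks that hold 7985 bases. Tmem150c (ENSMUSG00000050640) lies at chr5:100077872-100159808 on the minus strand, with 11 exon blocks and 5555 exon bases. Klhdc7a (ENSMUSG00000078234) is a gene of 1 exon of 7807 bases at chr4:139960220-139968026 on the minus strand. Tmprss13 (ENSMUSG00000037129) lies at chr9:45319100-45347581 on the plus strand, with 13 exon blocks and 3245 exon bases.

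The 180 bases before a coding transcript's annotated start are shown for the 3 genes in the RefSeq promoter table (GRCm38.p6), to set the DNA next to these starts beside genes that moved in opposite directions. Each is written 5′ to 3′ on the gene's own strand, and capitals mark a GC box. The stretches are chr13:91460870-91461049 (plus strand) for Ssbp2, chr5:100159282-100159461 (minus strand) for Tmem150c and chr4:139968027-139968206 (minus strand) for Klhdc7a. That of Tmem150c precedes the start of a shorter coding transcript, lies in the first intron of a longer one and overlaps an exon of a transcript annotated as a retained intron. That of Ssbp2 precedes the earliest coding start and lies in the first intron of a processed transcript that begins farther upstream.
Ssbp2: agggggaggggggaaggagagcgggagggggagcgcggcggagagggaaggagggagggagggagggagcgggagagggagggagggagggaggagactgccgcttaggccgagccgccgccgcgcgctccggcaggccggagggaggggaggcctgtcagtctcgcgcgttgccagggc
Tmem150c: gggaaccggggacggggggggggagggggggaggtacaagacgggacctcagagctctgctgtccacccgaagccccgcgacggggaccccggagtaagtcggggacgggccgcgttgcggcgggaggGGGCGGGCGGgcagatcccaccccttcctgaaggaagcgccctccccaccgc
Klhdc7a: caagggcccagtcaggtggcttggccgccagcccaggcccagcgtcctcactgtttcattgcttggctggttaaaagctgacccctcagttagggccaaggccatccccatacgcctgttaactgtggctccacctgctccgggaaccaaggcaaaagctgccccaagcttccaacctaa

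These stretches were rich in G and C, at 76.1% in Ssbp2, 75% in Tmem150c and 59.4% in Klhdc7a, where the median over 32851 RefSeq promoters was 53.3%. Both strands were searched for 5 motifs. The letters GGGCGG, a GC box, occurred 2 times in the Tmem150c stretch, as overlapping matches 52 to 43 bases before its start, and stood in 30.2% of all promoters of this length. The other motifs were absent from the 3 stretches, and Ssbp2 and Klhdc7a held no GC box either. Of all promoters, 27.5% held the letters CCAAT. The box that often sets a start site, searched as the letters TATAAA, was held by 8.94%. A GATA factor site, searched as the letters AGATAA, was held by 6.91% of them. The amino acid response element of ATF4, searched as the letters TGATGNAA, was held by 2.60%. A match of letters is a description and does not show that a factor binds.

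The Klhdc7a exon also holds Mir2139 within its coding sequence and on the same strand, so that a transcript of Klhdc7a carries these letters. Its mature form lies at chr4:139967531-139967554 (minus strand, RefSeq, GRCm38.p6) and is shown with the seed, bases 2 to 8, in capitals. The level of the miRNA was not analysed here.
mmu-miR-2139: aGCUGCGCugcuccugguaacugc

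Ssbp2 had the smallest difference of the 4, with a lower level in cmGch1 KO hearts. WT replicates 1 to 6 held 27.9, 24.5, 25.4, 28.3, 26.7 and 25.8 cpm of Ssbp2. cmGch1 KO replicates 1 to 6 held 19.1, 17.3, 18.3, 16.1, 17.6 and 17.6 cpm. Every cmGch1 KO library lay below every WT library, and the lowest WT library was 1.28-fold above the highest cmGch1 KO library. The means were 26.4 ± 1.48 cpm (SD, n = 6) and 17.6 ± 0.997 cpm (SD, n = 6), which left 66.8% of the WT level. This is a log2 fold change of -0.58 with a standard error of 0.065, and 373 to 1019 counts per library stood behind it.

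The libraries of each genotype lay close together for Ssbp2. Its SD of log2 cpm was 0.081 in WT, at the 10.04th percentile of the tested genes, and 0.082 in cmGch1 KO hearts, at the 5.58th percentile. Without the 2 libraries with high Xist the log2 fold change was -0.59, and over 12 fits that each left out 1 library it stayed between -0.61 and -0.56. An antisense RNA, 4833422C13Rik, overlaps the gene at its far end on the opposite strand, and its own counts were 27 to 67 per library, in WT at 1.38 ± 0.439 cpm and in cmGch1 KO hearts at 1.30 ± 0.251 cpm (SD, n = 6 each). Whether the counting kept the strands apart is not given in the sources used here.

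Tmem150c was lower in cmGch1 KO hearts, with a larger difference than Ssbp2. WT replicates 1 to 6 held 10.4, 10.9, 11.6, 11.3, 11.7 and 11.0 cpm of Tmem150c. cmGch1 KO replicates 1 to 6 held 6.99, 4.40, 4.86, 6.60, 5.42 and 5.65 cpm. The groups did not overlap, with a gap of 1.49-fold between the nearest libraries, and cmGch1 KO replicates 2 and 3 were the lowest of all 12. The means were 11.1 ± 0.460 cpm (SD, n = 6) and 5.65 ± 0.996 cpm (SD, n = 6), or 50.8% of the WT level. This is a log2 fold change of -0.97 with a standard error of 0.11, on 95 to 405 counts per library.

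Leaving out the libraries with high Xist moved Tmem150c more than Ssbp2. Their mean was 4.63 cpm of Tmem150c, against 6.17 ± 0.752 cpm (SD, n = 4) in the remaining cmGch1 KO libraries. Without them its log2 fold change was -0.85, it was -0.86 when a covariate stood for sex-linked expression, and leaving out 1 library at a time gave -1.04 to -0.92. Those 4 cmGch1 KO libraries still lay between 5.42 and 6.99 cpm, below each WT library. The part of sex-linked expression or of the lower mitochondrial share of these 2 libraries in the result was not tested further. The antisense transcript Tmem150cos, inside the gene on the opposite strand, had 0 to 1 counts per library.

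Klhdc7a had the largest log2 fold change of the 4, with a higher level in cmGch1 KO hearts. WT replicates 1 to 6 held 11.3, 12.3, 8.29, 7.64, 5.97 and 4.52 cpm of Klhdc7a. cmGch1 KO replicates 1 to 6 held 22.4, 28.1, 25.1, 25.2, 25.2 and 19.3 cpm. Every cmGch1 KO library was above every WT library, with a gap of 1.56-fold between the nearest libraries, although the WT libraries themselves spread over 2.73-fold. The WT mean was 8.35 ± 3.02 cpm and the cmGch1 KO mean 24.2 ± 3.03 cpm (SD, n = 6 each), a 2.90-fold higher level. Its log2 fold change was 1.53 with a standard error of 0.20, on 99 to 838 counts per library.

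The WT libraries of Klhdc7a were uneven. Its SD of log2 cpm was 0.54 in WT, at the 98.6th percentile of the tested genes, and 0.19 in cmGch1 KO hearts, at the 46.6th percentile. The log2 fold change was 1.46 without the libraries with high Xist, and 1.41 to 1.67 with 1 library left out at a time.

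Tmprss13 was the other gene with a higher level in cmGch1 KO hearts, on few counts. WT replicates 1 to 6 held 2.39, 1.39, 1.89, 1.31, 2.21 and 2.14 cpm of Tmprss13. cmGch1 KO replicates 1 to 6 held 4.13, 5.83, 5.46, 3.06, 6.62 and 4.69 cpm. Every cmGch1 KO library was again above every WT library, with a gap of 1.28-fold or 0.675 cpm between the nearest libraries. The WT mean was 1.89 ± 0.448 cpm and the cmGch1 KO mean 4.97 ± 1.28 cpm (SD, n = 6 each), a 2.63-fold higher level. On the log2 scale the difference was 1.40 (standard error 0.20).

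Between 47 and 170 counts of Tmprss13 were read per library, and its mean cpm stood at the 2.27th percentile of the tested genes. It entered the test with a cpm over 3 in 6 libraries, 0 of them WT, so it was tested because of the group in which it was high. Its SD of log2 cpm, 0.35 in WT and 0.39 in cmGch1 KO hearts, was at the 91.8th and 92.9th percentile. The log2 fold change was 1.30 without the libraries with high Xist and 1.30 to 1.51 with 1 library left out at a time. The antisense RNA 1700003G13Rik overlaps the start of the gene on the opposite strand and was not analysed here.

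**Figure D1:**
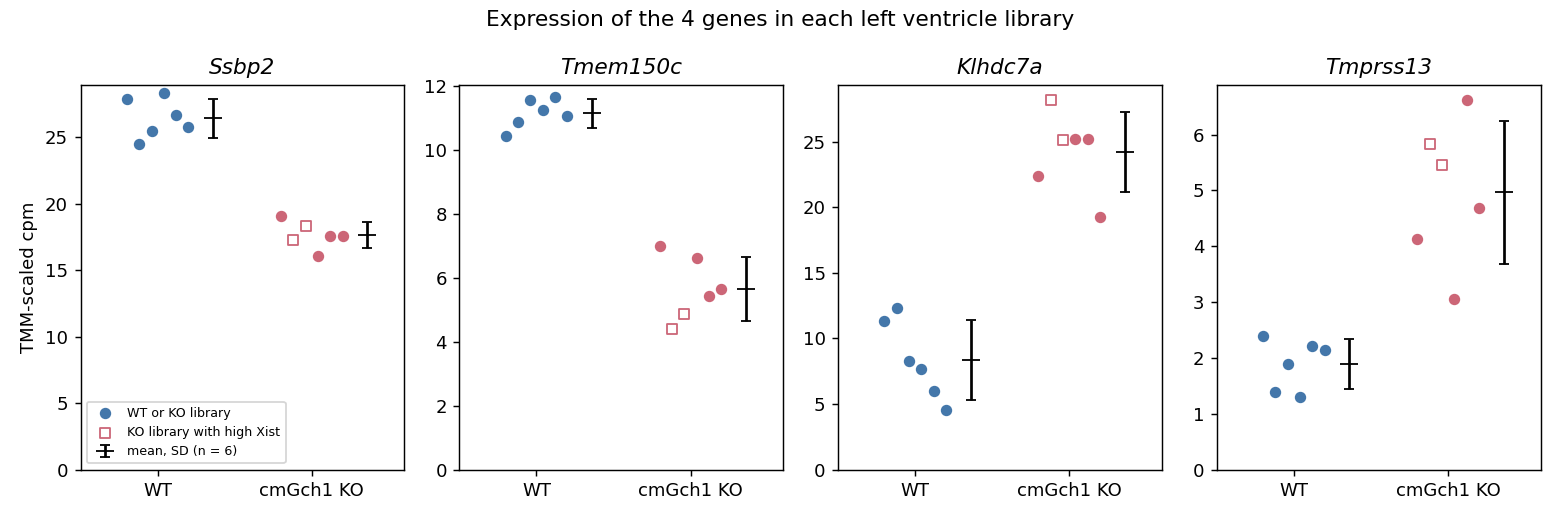
TMM-scaled cpm (y axis, from 0) of Ssbp2, Tmem150c, Klhdc7a and Tmprss13 in each of 6 WT and 6 cmGch1 KO libraries (points), with mean and SD beside them and open squares for the 2 libraries with high Xist. In each panel the genotypes do not overlap; the open squares are the lowest Tmem150c values, and Klhdc7a spreads from 4.52 to 12.3 cpm in WT.

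Over all 11225 tested genes (cpm over 3 in at least 6 libraries), 50 were lower (0.445%) and 76 were higher (0.677%) in cmGch1 KO hearts at an FDR under 0.05 by edgeR's quasi-likelihood test, adjusted after Benjamini and Hochberg. Genes whose libraries did not overlap made up 0.802% lower and 1.07% higher. The 4 members are among these by their choice. Counted from the most negative log2 fold change of all tested genes Ssbp2 ranked 70 and Tmem150c 13, and counted from the most positive Klhdc7a ranked 6 and Tmprss13 ranked 7.

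**Figure D2:**
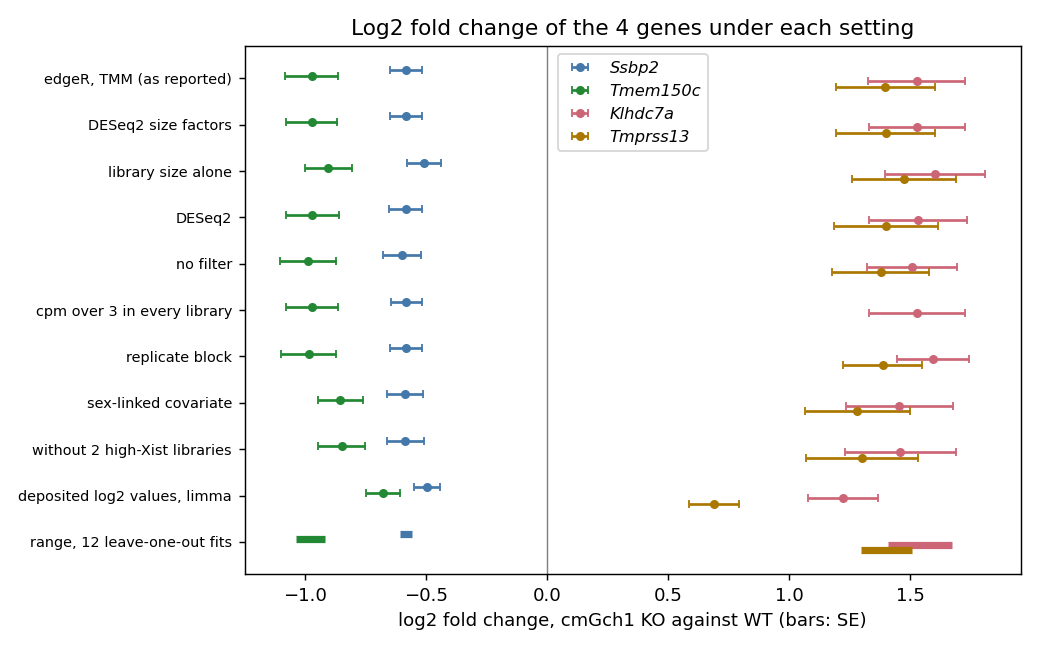
Log2 fold change between cmGch1 KO and WT hearts (x axis) of the 4 genes under each processing setting (rows), as points with standard errors, and the range over 12 leave-one-out fits as bars. Ssbp2 and Tmem150c stay below 0 and Klhdc7a and Tmprss13 above 0 in each row; the deposited log2 values give Tmprss13 a difference of 0.69, and it has no point in the row that required cpm over 3 in every library.

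The genotypes were also apart on the 2 other scales examined. Both scales hold the same libraries by which the members were chosen, so this separation is no independent support. With cpm from library size alone the WT libraries of Tmprss13 reached at most 2.37 cpm and its cmGch1 KO libraries at least 3.09 cpm. On the authors' normalized log2 values Tmprss13 lay between 7.16 and 7.52 in WT and between 7.69 and 8.32 in cmGch1 KO hearts. The same held for Tmem150c, which on that scale lay between 8.78 and 8.90 in WT and between 7.97 and 8.37 in cmGch1 KO hearts, and for Ssbp2 and Klhdc7a. The differences in the authors' log2 values were smaller than those from counts, at -0.50 for Ssbp2, -0.68 for Tmem150c, 1.22 for Klhdc7a and 0.69 for Tmprss13.

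Per kilobase of exon the order of the 4 genes differed between the genotypes. In WT, Ssbp2 was highest at 3.31 ± 0.185 cpm per kb (SD, n = 6), followed by Tmem150c at 2.004 ± 0.0828, Klhdc7a at 1.07 ± 0.387 and Tmprss13 at 0.582 ± 0.138. The libraries of Klhdc7a (0.579 to 1.58) and Tmprss13 (0.402 to 0.736) overlapped, while the other neighbours in this order did not. In cmGch1 KO hearts Klhdc7a was highest at 3.10 ± 0.389, followed by Ssbp2 at 2.21 ± 0.125, Tmprss13 at 1.53 ± 0.393 and Tmem150c at 1.02 ± 0.179. There Klhdc7a stood above Ssbp2 in every library, whereas Tmprss13 (0.944 to 2.04) overlapped both Ssbp2 (2.01 to 2.39) and Tmem150c (0.791 to 1.26). These lengths are those of all annotated exons joined, not of the transcript in use.

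**Figure D3:**
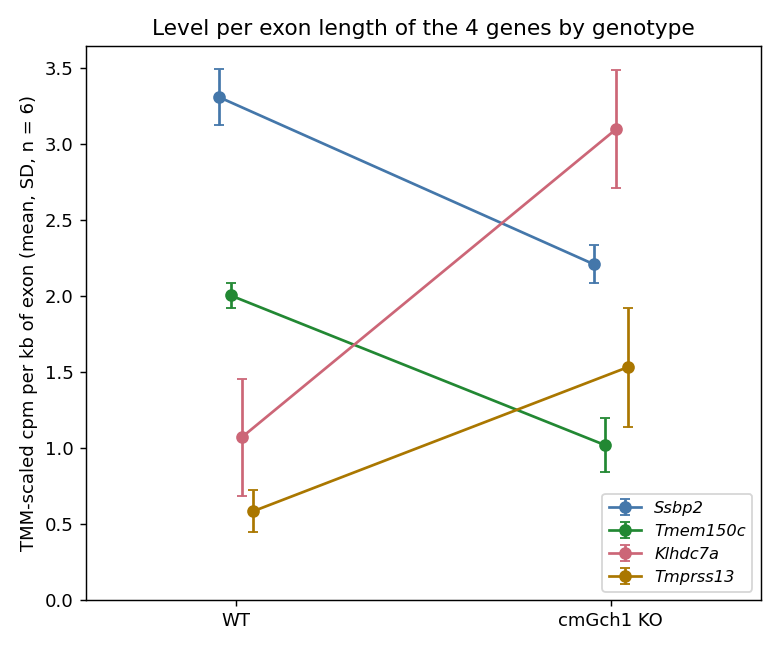
TMM-scaled cpm per kilobase of annotated exon (y axis, from 0) of the 4 genes in WT and cmGch1 KO hearts, as means with SD (n = 6), with a line joining the means of each gene. Ssbp2 leads in WT at 3.31 and Klhdc7a in cmGch1 KO hearts at 3.10.

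**Figure D4:**
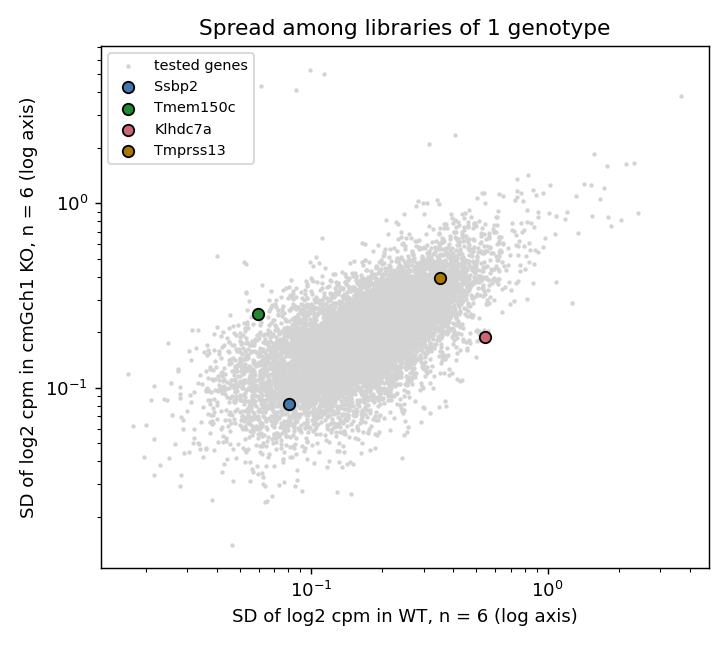
SD of log2 cpm among the 6 WT libraries (x axis, log scale) against that among the 6 cmGch1 KO libraries (y axis, log scale) for all tested genes (grey) and the 4 members (coloured). Klhdc7a lies to the right (0.54 in WT, 0.19 in cmGch1 KO), Tmem150c to the upper left (0.060 and 0.25), Ssbp2 low on both axes and Tmprss13 high on both.

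Partners and relatives were then examined in lists that hold none of the members. Of 85 listed genes 39 were tested, and 0 passed the FDR of 0.05 by edgeR or by DESeq2, nor by edgeR without the libraries with high Xist. For comparison, 0.445% of all tested genes were called lower and 0.677% higher. With no adjustment, 2 of the 39 were lower and 6 were higher at p under 0.05 by edgeR, beside 4.51% lower and 7.01% higher of all tested genes.

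Of 25 partners of Ssbp2 in the LDB1 complex, 14 were tested, with a median log2 fold change of -0.020 beside -0.0095 for all tested genes. The paralogs Ssbp3 (log2 fold change 0.078, standard error 0.081) and Ssbp4 (-0.0051, standard error 0.10) and the adaptor Ldb1 (-0.074, standard error 0.074) differed by no more than their standard errors. Gata2, a factor of endothelial and blood cells, and Gata4, a factor of heart muscle development, had the smallest p of the list. Gata2 was in WT at 16.8 ± 2.29 cpm and in cmGch1 KO hearts at 14.3 ± 2.63 cpm (SD, n = 6 each), with an adjusted p of 0.547 by edgeR. Gata4 was at 130 ± 16.4 cpm and 144 ± 8.41 cpm (SD, n = 6 each), with an adjusted p of 0.552 by edgeR.

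For Tmem150c, 4 of 5 relatives were tested, and their median log2 fold change was -0.088. Tmem150a was in WT at 22.7 ± 2.85 cpm and in cmGch1 KO hearts at 22.8 ± 1.78 cpm (SD, n = 6 each), and Tmem150b stayed at 0.276 cpm or less. The autophagy genes Dram1 (log2 fold change -0.19, standard error 0.16) and Dram2 (-0.094, standard error 0.098) had the smallest p, with adjusted p of 0.761 and 0.816 by edgeR. Of 12 tested mechanically gated channels, Tmem63a, an osmosensitive channel, differed by 0.16 ± 0.070 on the log2 scale (standard error; edgeR adjusted p = 0.371) and Trpm4, a calcium-activated cation channel, by -0.19 ± 0.080 (edgeR adjusted p = 0.376). Piezo1, the best known of them, was at 20.1 ± 3.12 cpm and 20.8 ± 4.88 cpm (SD, n = 6 each).

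Klhdc7b, the nearest relative of Klhdc7a by name, was at 0.0552 cpm or less. Of 7 tested genes of the kelch domain family the median log2 fold change was 0.018. Klhdc8a was the nearest to a call, in WT at 36.8 ± 9.94 cpm and in cmGch1 KO hearts at 51.1 ± 7.99 cpm (SD, n = 6 each), with a log2 fold change of 0.47 (standard error 0.16) and an adjusted p of 0.207 by edgeR. Without WT replicate 1 its log2 fold change was 0.62 with an adjusted p of 0.0342 by edgeR, and over all alternatives its adjusted p ran from 0.0342 to 0.723, the highest without the libraries with high Xist, where its log2 fold change was 0.36. Klhdc4 differed by 0.22 ± 0.080 on the log2 scale (standard error; edgeR adjusted p = 0.251).

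Proteases of the Tmprss13 class were scarce. Of 18 type II transmembrane serine proteases in the counts, 16 had a mean under 1 cpm, and Tmprss3, Tmprss11c and Tmprss11d had 0 counts in each library. Since a count of 0 is compatible with up to 3 counts, their level could reach 0.139 cpm in the shallowest library, a limit for counting error alone. Corin, the cardiac protease that activates natriuretic peptides, was the single one tested, in WT at 171 ± 17.1 cpm and in cmGch1 KO hearts at 193 ± 16.3 cpm (SD, n = 6 each), with an adjusted p of 0.392 by edgeR. Hepsin (Hpn) was at 2.33 ± 0.677 cpm and 2.39 ± 0.705 cpm (SD, n = 6 each). Of 8 inhibitors and reported substrates Spint2, a membrane inhibitor of such proteases, was the single one tested, with a log2 difference of 0.16 ± 0.066 (standard error; edgeR adjusted p = 0.328), and Spint1 had a mean under 1 cpm.

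Each member was also set beside the nearest tested gene on either side, at 9112 to 546459 bases. Of these 8 neighbours 0 passed the FDR of 0.05 by edgeR or DESeq2, nor by edgeR without the libraries with high Xist. With no adjustment, 1 was higher at p under 0.05 by edgeR, beside 4.51% lower and 7.01% higher of all tested genes. Beside Ssbp2, the autophagy gene Atg10 differed by -0.21 ± 0.12 on the log2 scale (standard error; edgeR adjusted p = 0.567) and Zcchc9 by 0.10 ± 0.079 (edgeR adjusted p = 0.729). Beside Tmem150c, Enoph1, an enzyme of methionine salvage, differed by 0.24 ± 0.092, opposite in sign (edgeR adjusted p = 0.303), and Sec31a, a coat protein of vesicles, by 0.080 ± 0.090 (edgeR adjusted p = 0.834). Beside Klhdc7a, Aldh4a1, an enzyme of proline breakdown, differed by -0.11 ± 0.067 (edgeR adjusted p = 0.601) and Arhgef10l by 0.075 ± 0.086 (edgeR adjusted p = 0.840). Beside Tmprss13, the interleukin receptor gene Il10ra differed by -0.030 ± 0.16 (edgeR adjusted p = 0.978) and Fxyd6, a regulator of the sodium pump, by 0.0096 ± 0.15 (edgeR adjusted p = 0.994), and both changed sign under other settings. Without the libraries with high Xist the 8 neighbours lay between -0.22 and 0.18 on the log2 scale.

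**Figure D5:**
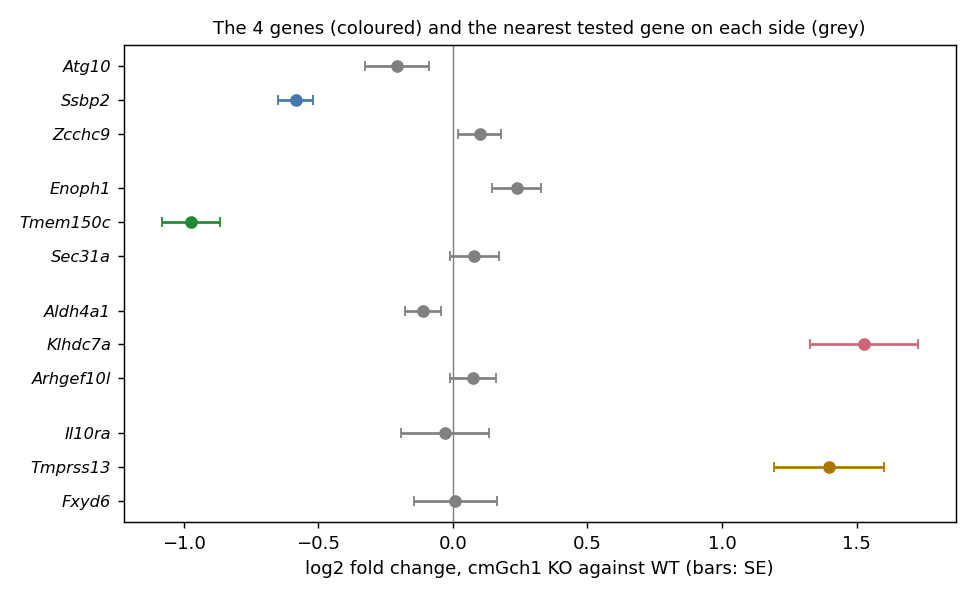
Log2 fold change between cmGch1 KO and WT hearts with standard errors (x axis) of each of the 4 genes (coloured) and the nearest tested gene at lower and at higher coordinates (grey). The neighbours lie between -0.21 and 0.24 when all 12 libraries are used. Each member lies farther from 0 than its neighbours, but the members were chosen by their separation in these same libraries.

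Within a genotype the members did not follow each other detectably. Over the 12 pairs of members, 6 in WT and 6 in cmGch1 KO hearts with n = 6 libraries each, Pearson's r of log2 cpm ran from -0.75 to 0.37, and 0 had a p under 0.05 by a two-sided exact permutation test. The strongest was that of Tmem150c with Tmprss13 in cmGch1 KO hearts, with r = -0.75 (exact permutation p = 0.0889, adjusted p = 0.950) and Spearman's rho = -0.77 (exact permutation p = 0.103, adjusted p = 0.876). Without the 2 libraries farthest from the median of the first member this r was -0.83, but over the 4 libraries left r ran from -0.83 to 0.91 among the 12 pairs and changed its sign in 4 of them, so these values say little. With 6 libraries only strong relations could have been seen.

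The tested genes whose library-to-library pattern was most like each member, after the genotype means were removed, are given as a description. Each of the 12 libraries has its own depth and RNA quality, which all genes of a library share. These genes were picked as the 3 with the highest r per member among 11225 tested genes. A high r, also within 1 genotype, therefore follows in part from this choice and is no test of a relation. For Ssbp2 they were Rpp21 (r = 0.95), Coq10a (r = 0.93) and Ube2m (r = 0.93). For Tmem150c they included Armh3 (r = 0.95) and Gm28437 (r = 0.93), an annotated unprocessed pseudogene whose reads the counting could split with a near-identical copy. Armh3 followed Tmem150c in cmGch1 KO hearts (r = 0.99) more than in WT (r = 0.24), and the difference between these was not tested. Tmem150c varied little in WT, with an SD of log2 cpm of 0.060 (3.97th percentile of tested genes) and 0.25 in cmGch1 KO hearts. The r in cmGch1 KO hearts includes the 2 libraries with high Xist, where Tmem150c was lowest. For Klhdc7a they were Nrde2 (r = 0.90), Cx3cl1 (r = 0.89) and Scara3 (r = 0.86), and for Tmprss13 Hsf1 (r = 0.91), Abr (r = 0.89) and Smarcb1 (r = 0.89).

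The tissue was checked by marker genes, since in bulk RNA fewer cells of a type and less RNA per cell cannot be told apart. Of 7 cardiomyocyte markers 0 passed the FDR by edgeR or DESeq2, 6 had a negative log2 fold change with a median of -0.16 over the list, and their summed level was 55811 to 59715 cpm in WT and 50591 to 56109 cpm in cmGch1 KO hearts. Of 6 macrophage markers 0 passed by edgeR or DESeq2. All 6 were still higher at an unadjusted p under 0.05 by edgeR, beside 7.01% higher of all tested genes. Their median log2 fold change was 0.30, and their sums of 132 to 168 cpm in WT and 165 to 208 cpm in cmGch1 KO hearts overlapped. Without the libraries with high Xist their log2 fold changes were 0.20 to 0.31. Proteases such as Tmprss13 are known mainly from epithelia. Epithelial and mesothelial markers together summed to 4.22 to 13.4 cpm in WT and 4.29 to 8.72 cpm in cmGch1 KO hearts, ranges that overlap. Most of that sum was the mesothelial marker Wt1, in WT at 4.35 ± 1.14 cpm and in cmGch1 KO hearts at 4.33 ± 1.56 cpm (SD, n = 6 each), the 1 of the 8 that was tested, which did not pass. The epithelial keratin Krt18, too low to be tested, lay between 0.228 and 0.667 cpm in WT. In cmGch1 KO hearts it lay between 0.689 and 2.13 cpm, without overlap, with a 2.50-fold higher mean. Of all tested genes, 1.07% were higher without overlap. The other untested markers of this list overlapped between the genotypes, and their means went both ways. The cmGch1 KO mean was 0.71-fold of WT for Epcam, 1.51-fold for Cdh1, 0.93-fold for Krt8 and 0.94-fold for Krt19. It was 0.53-fold for Msln and 0.64-fold for Upk3b. Of 7 pericyte and smooth muscle markers 5 had a negative log2 fold change, with a median of -0.064 over the list and sums that overlapped. Acta2 was the 1 that passed, with a log2 difference of 0.66 and an edgeR adjusted p of 0.00672 (0.52 and 0.0390 without the libraries with high Xist), while the contractile genes Tagln (-0.40, edgeR adjusted p = 0.491) and Myh11 (-0.24, edgeR adjusted p = 0.450) did not pass. All 6 fibroblast markers had a positive log2 fold change, with a median of 0.11, and 2 had an unadjusted p under 0.05 by edgeR. Fibroblast markers (0 of 6 passed by edgeR, 1 by DESeq2), endothelial markers (0 of 6), atrial markers (0 of 4) and nerve and glia markers (0 of 1) had sums that overlapped between the genotypes. No lymphocyte marker (sum at most 4.44 cpm) or adipocyte marker (sum at most 3.10 cpm) was tested. The part of cell composition in the differences of the 4 members was not tested.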

How the data were processed

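Total RNA of left ventricle was sequenced by the authors as paired-end libraries with dUTP in the second strand, and counts per gene were generated with HISAT2, Picard and featureCounts. The submitters' processing notes name HISAT2, SAMtools and the build GRCm38. Which annotation was counted, and with which strand setting, is not given in the sources used here, so reads of antisense overlaps may be shared. The authors deposited raw counts per Ensembl gene, and a table of normalized log2 values for which the authors' tool is not given in the sources used here. GENCODE M21 named 26582 of the 26921 identifiers.

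The counts were tested with edgeR 4.0.16 in R 4.3.3, with TMM scaling and its quasi-likelihood fit on genotype alone. Genes needed a cpm over 3 in at least 6 libraries, and calls an FDR under 0.05. DESeq2 1.42.0 and limma 3.58.1 (for the deposited log2 values, with a trend) served as alternatives. Log2 cpm used a prior count of 2. Groups and replicate numbers came from the labels. Two-sided exact permutation tests covered relations between members.

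The 4 members and all gene lists were chosen with earlier results of these data known. The genes named are the members, Gch1, the 3 tested genes most like each member (1 of which is not reported here), the nearest tested gene on each side, and from each list of related genes those past the FDR or, with none, the 2 with the smallest p. Ssbp3, Ssbp4, Ldb1, Tmem150a, Tmem150b, Piezo1, Klhdc7b, Hpn, Spint1, Acta2, Tagln, Myh11, Wt1, Krt18, Epcam, Cdh1, Krt8, Krt19, Msln, Upk3b, the proteases at 0 counts and the overlapping antisense RNAs were named after their values were seen. Refits of neighbours, of Gch1 and of the related genes, beyond the fit without the libraries with high Xist, were added after seeing the data.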

Additional observations from a re-analysis of the deposited data

Results flagged for a closer look

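Among 46 groups of 6 libraries examined (members, named relatives, neighbours and Gch1, each genotype apart), 3 held a library far from the other 5 by Dixon's test, where chance gives about 1 in 20 groups. None was a group of the 4 members. Dram2 was at 77.6 cpm in cmGch1 KO replicate 1, above the others. Aldh4a1 was at 66.6 cpm in cmGch1 KO replicate 2, a library with high Xist, below the others. Fxyd6 was at 36.7 cpm in WT replicate 1, above the others.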

How the results depend on the processing

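The directions of the 4 members follow from their choice and are no sign of stability. They were the same under each alternative that gave a value, and a cpm over 3 in every library gave none for Tmprss13. On the deposited log2 values the differences were smaller, at -0.50 for Ssbp2, -0.68 for Tmem150c and 0.69 for Tmprss13. Counts of all genes called depended more on the setting. DESeq2's Wald test called 155 lower and 218 higher, library size alone 116 higher, the sex-linked covariate 24 lower and 40 higher, and the fit without the 2 libraries with high Xist 18 lower and 20 higher. With 1 library left out, 30 to 97 were lower and 45 to 116 higher, with the lowest counts without WT replicate 3 and the highest without cmGch1 KO replicate 1. With the replicate number as a replicate block 76 were lower and 112 higher, and the log2 fold changes were -0.58 for Ssbp2, -0.99 for Tmem150c, 1.59 for Klhdc7a and 1.38 for Tmprss13. Deviations of same-numbered libraries correlated at 0.68, -0.095, -0.078, -0.13, 0.40 and 0.51 for numbers 1 to 6, over 0.1 for 3 of the 6. For 3 of the 6 the best match was also the same number, a hint of pairing in part of the data that the labels do not state, so the libraries were treated as unpaired. Library size alone moved the median log2 fold change of all genes from -0.0095 to 0.065. It also gave 1 of the 12 relations between members a p under 0.05, against 0. Neighbours near 0 changed sign. Il10ra was at 0.037 with library size alone, 0.14 with the covariate and 0.15 without the libraries with high Xist, and -0.14 to 0.053 with 1 library left out. Fxyd6 was at -0.0099 without a filter, -0.0063 with the covariate, -0.019 with the block, -0.023 both without the libraries with high Xist and on the deposited values, and -0.14 to 0.10 with 1 library left out. The cause of these moves was not tested. The depth limits Tmprss13 most, at 47 to 170 counts per library.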
